A study of Caenorhabditis elegans with 27 samples.

Results

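The siRNAs of 10 *Caenorhabditis elegans* genes that encode RNA-binding regulators of the germline (*fbf-1*, *fbf-2*, *gld-1*, *gld-3*, *nos-2*, *nos-3*, *mex-3*, *mex-5*, *oma-1* and *oma-2*) were followed over 8 genotypes. The genes were chosen by name and none was left out for its values, but the set was drawn up with earlier results of these data known. Of the 20150 sRNAs in the count table, 10062 are siRNAs, each summing, for 1 protein-coding gene, the reads that run antisense to its coding sequence. The table has an siRNA row for 7 of the 10 genes, and the siRNAs of *gld-1*, *nos-2* and *oma-1* are not analysed here. Rows for 6 of the 7 passed the filter on low counts and were tested, whereas *gld-3* did not.

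These proteins bind mRNAs, mostly in the 3′ UTR, and set when and where germline mRNAs are translated. FBF-1 and FBF-2 are near-identical PUF proteins that keep germline stem cells from entering meiosis, GLD-1 is a translational repressor of meiotic germ cells, and GLD-3 is a KH-domain protein that partners the poly(A) polymerase GLD-2. NOS-2 and NOS-3 are Nanos proteins, MEX-3 and MEX-5 act in the oocyte and early embryo, and OMA-1 and OMA-2 are redundant zinc-finger proteins needed for oocyte maturation. In the germline, RNA-dependent RNA polymerases copy mRNAs into antisense siRNAs, which load onto Argonaute proteins that either silence or license the matching gene. Poly(U) polymerases (PUPs) add uridines to the 3′ ends of RNAs, siRNAs included, and the comparisons ask how siRNA abundance differs when PUPs are missing.

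Whole 1-day adult hermaphrodites raised at 22°C were sampled, with 3 libraries for each mutant strain and 6 for wild type. The strains were *pup-4(om141)*, *pup-3(tm5089)*, *pup-2(tm4344)*, *pup-1(tm1021)* and *pup-1/-2(om129)*, the last of these combined with *pup-3(tm5089)*, and that combination with *pup-4(om141)* added, with N2 as wild type. They are written here with (0) in place of the allele, and the strains with *pup-1/-2(om129)* are called the double, triple and quadruple mutant. All alleles are heritable mutations present in every tissue, and per the study's methods the *pup-1* and *pup-2* alleles, alone or joined, were kept over a balancer and their animals harvested without maternal or zygotic product. The *pup-4* gene is on the same chromosome as *fbf-1*, *fbf-2*, *gld-3* and *nos-3*, and the *pup-3* gene is on the same chromosome as *mex-3*. In whole animals, fewer germ cells and fewer siRNAs per germ cell cannot be told apart.

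Library totals ran from 972048 to 17562388 counts with a median of 6692414, so a floor of 3 counts lay between 0.171 and 3.09 CPM at the unscaled totals. All other CPM values are counts relative to a library size scaled with edgeR's TMM method. Replicate 1 of *pup-3(0)*, the triple mutant, *pup-1(0)*, *pup-2(0)* and wild type were the shallowest libraries, at up to 2054529 counts. The libraries of the double mutant differed in composition, with miRNAs at 19.7% of the counts in replicate 1 and at 47.4% and 46.0% in replicates 2 and 3. The shares of replicates 2 and 3 were the highest of all 27 libraries, the others lying between 14.85% and 41.25%, so values without replicate 1 rest on the libraries richest in miRNA. All 7 mutant strains were set against the same 6 wild-type libraries, so their comparisons are not independent of each other. The study's methods speak of wild-type and mutant replicates run in parallel, and which wild-type libraries ran with which strain is not given, so a run cannot be told apart from a strain.

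In wild type, 6 of the 7 regulators had more siRNAs for their length than the median gene and *gld-3* had almost none. Per kb of coding sequence, *mex-5*, whose product sets up polarity of the zygote, led at 104.1 CPM per kb (IV, 13353723 to 13356104, plus strand, WBcel235). It was followed by *fbf-2* at 80.6 CPM per kb (II, 6088863 to 6091480, minus strand) and *fbf-1* at 57.0 CPM per kb (II, 6078263 to 6080843, minus strand). Next came *mex-3* at 47.4 CPM per kb (I, 127285 to 134270, plus strand), *oma-2* at 29.8 CPM per kb (V, 8029439 to 8031214, plus strand) and *nos-3* at 11.3 CPM per kb (II, 9746316 to 9750462, plus strand). The median was 6.71 CPM per kb over all 10062 siRNAs and 22.1 CPM per kb over the 7184 siRNAs that were tested. On this scale the 6 lay between the 55th and the 89.4th percentile of all siRNAs. The coding sequence of none of the 7 genes overlaps the span of another annotated gene.

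**Figure D1:**
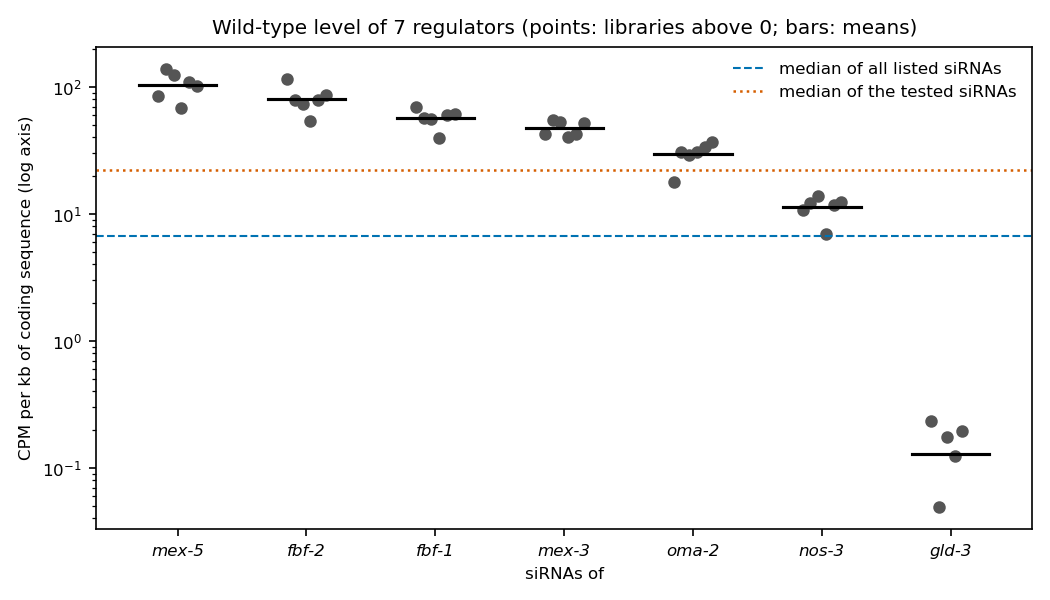
siRNA level in wild type, in CPM per kb of coding sequence on a log axis, for 7 regulators. Points are libraries with at least 1 count, bars are means over 6 libraries, and the lines mark the medians of all listed (6.71 CPM per kb) and of the tested (22.1 CPM per kb) siRNAs; 5 genes have means above both lines, *nos-3* lies between them and *gld-3* lies far below.

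The siRNAs of *gld-3* (II, 7132643 to 7137522, plus strand) were at the limit of detection. The 27 libraries held 73 of its counts in all, 9 libraries held 0 and the highest library, replicate 2 of the quadruple mutant, held 15. Counts were 9, 15 and 6 in the quadruple mutant and 1, 3 and 2 in the triple mutant, against 1, 0, 1, 2, 5 and 8 in wild type. At their depths the quadruple mutant counts are 0.758, 0.722 and 0.425 CPM, of which the last lies within the wild-type range of 0 to 0.705 CPM. The 3 libraries of *pup-3(0)* each held 0 counts, which allows up to 3.09, 0.281 and 0.519 CPM at their totals. The row was too low to test, so a difference in *gld-3* siRNAs was not detectable at this depth. This floor covers counting error only.

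The siRNAs of *fbf-1* and *fbf-2* were more abundant than in wild type in the quadruple mutant and *pup-1(0)*, by less than the fold threshold for a call. In the quadruple mutant *fbf-2* siRNAs stood at 239, 258.5 and 257 CPM, against a lowest value of 102, a median of 149 and a highest of 217 CPM in the 6 wild-type libraries. All 3 quadruple mutant libraries were above every wild-type library, and 32.4% of all sRNAs tested had ranges that did not overlap in this comparison, in either direction. The log2 fold change was 0.72 (standard error 0.17, 95% interval 0.36 to 1.08, adjusted p = 0.00192 in edgeR's quasi-likelihood test, where p values were adjusted over all sRNAs by Benjamini-Hochberg), a 1.65-fold higher level. For *fbf-1* the quadruple mutant had 139, 178 and 149.9 CPM, against 73.0, 107.5 and 127 CPM as lowest, median and highest of wild type, again with no overlap. Its log2 fold change was 0.57 (standard error 0.16, 95% interval 0.24 to 0.89, adjusted p = 0.00612 from the same edgeR test).

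In *pup-1(0)*, *fbf-1* siRNAs stood at 99.8, 177 and 179 CPM and *fbf-2* siRNAs at 189, 278 and 239 CPM. Replicate 1, the shallowest of the 3, was the lowest for both genes and lay within the wild-type range, and the other replicates lay above it. Against wild type the log2 fold change was 0.54 for *fbf-1* (standard error 0.16, 95% interval 0.21 to 0.87, adjusted p = 0.0093) and 0.63 for *fbf-2* (standard error 0.17, 95% interval 0.27 to 0.99, adjusted p = 0.00636, both from edgeR's test). These calls were less firm than those in the quadruple mutant: without *pup-1(0)* replicate 2 the log2 fold change was 0.43 (adjusted p = 0.0884) for *fbf-1* and 0.50 (adjusted p = 0.0657) for *fbf-2*, and without replicate 3 it was 0.42 (adjusted p = 0.0966) for *fbf-1*. In the quadruple mutant, leaving out its replicate 2 gave 0.46 for *fbf-1* (adjusted p = 0.0645), and *fbf-2* stayed at an adjusted p of 0.0113 or less with any 1 library left out.

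Elsewhere both genes were closer to wild type. The double mutant had 131, 116 and 111 CPM of *fbf-1* siRNAs and 254, 158 and 155 CPM of *fbf-2* siRNAs, so its replicate 1 was the highest for both. The triple mutant had 98.5, 130.3 and 124 CPM of *fbf-1* and 164, 181.5 and 174 CPM of *fbf-2* siRNAs. Their log2 fold changes against wild type, for *fbf-1* and *fbf-2* 0.19 and 0.31 in the double and 0.17 and 0.19 in the triple mutant, had 95% intervals that included 0. Without wild-type replicate 1, the highest of its group for *fbf-2*, *fbf-2* reached 0.41 in the double mutant (adjusted p = 0.028 from edgeR's test). Without double mutant replicate 1 it was 0.03. In *pup-4(0)* the log2 fold changes were 0.03 and 0.08, also with intervals that included 0.

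The lowest mean of both genes was in *pup-3(0)*. There *fbf-1* siRNAs stood at 74.8, 78.1 and 67.4 CPM and *fbf-2* siRNAs at 146, 104 and 111 CPM, each overlapping the wild-type range. The log2 fold change of *fbf-1* was -0.52 (95% interval -0.86 to -0.17), which missed the threshold after adjustment (adjusted p = 0.224 from edgeR's test). Without wild-type replicate 4, whose 73.0 CPM was the lowest of its group, it was -0.65 (adjusted p = 0.0293), and DESeq2 gave -0.56 (adjusted p = 0.0417). In *pup-2(0)* the log2 fold changes were -0.29 for *fbf-1* and -0.28 for *fbf-2*, with 95% intervals of -0.63 to 0.05 and -0.65 to 0.09. Ordered by mean level, both genes ran from the quadruple mutant through *pup-1(0)*, the double mutant, the triple mutant, *pup-4(0)*, wild type and *pup-2(0)* to *pup-3(0)*. Neighbours in that order overlapped, except that every *pup-2(0)* library was above every *pup-3(0)* library for *fbf-1*. That pair was found by ordering the means and was not tested. The share of all sRNAs without overlap between these strains was not counted. The highest mean was 2.12 times the lowest for *fbf-1* and 2.09 times for *fbf-2*.

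**Figure D2:**
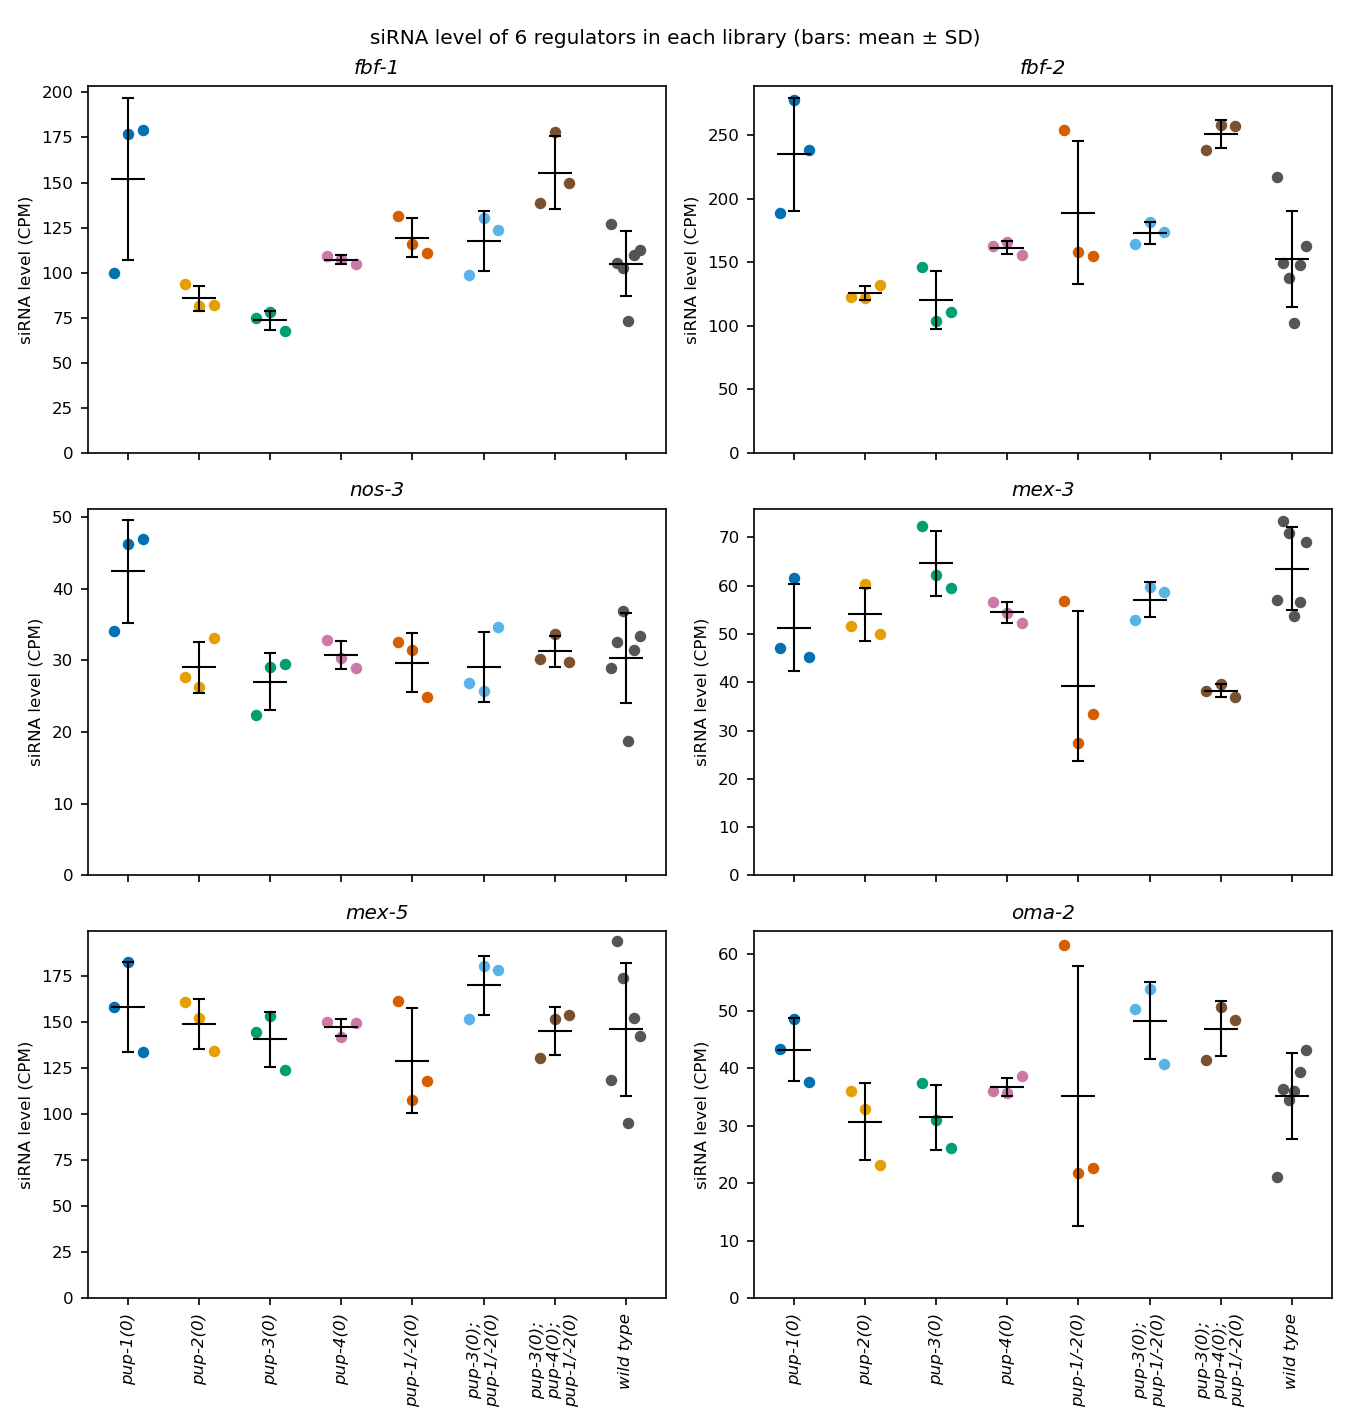
siRNA level in CPM (axis from 0) in each of 27 libraries for 6 regulators, by genotype with wild type on the right. Points are libraries and bars are mean ± SD (n = 3 for mutants, n = 6 for wild type); the 3 quadruple mutant libraries lie above all wild-type libraries for *fbf-1* and *fbf-2* and below them for *mex-3*, and replicate 1 of *pup-1/-2(0)*, its leftmost point, is far from the other 2 for *fbf-2*, *mex-3* and *oma-2*.

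The 2 *fbf* genes lie close together on chromosome II and are near-identical, so reads that match both could have been counted to either, and their values are not separate evidence. Over the coding length, *fbf-2* had more siRNA reads than *fbf-1* in every library. The ratio was 1.28 to 1.89, with a median of 1.44. It ran from 1.41 to 1.67 in the quadruple mutant and from 1.29 to 1.84 in *pup-1(0)*, against 1.3 to 1.66 in wild type, so the ranges overlapped. Over the 8 genotype means of log2 CPM the 2 genes had a Pearson correlation of 0.99, given as a description because both genes were read from the same libraries and may share reads.

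**Figure D3:**
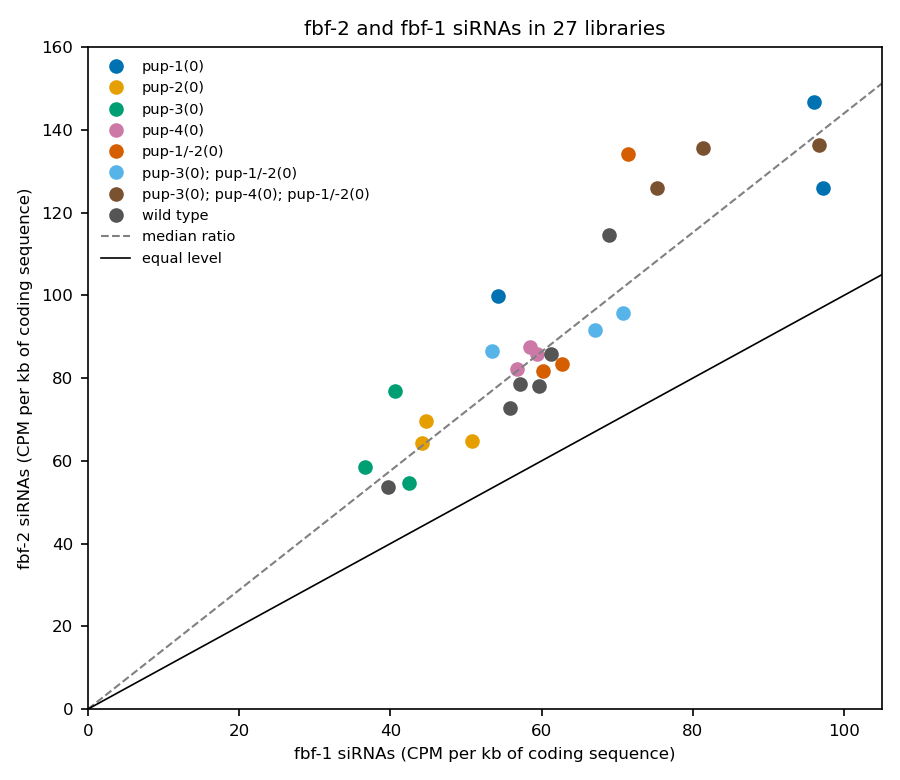
siRNA level of *fbf-2* (y axis) against *fbf-1* (x axis) in 27 libraries, both in CPM per kb of coding sequence, colored by genotype. All points lie above the line of equal level (solid), scattered around the median ratio of 1.44 (dashed).

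The siRNAs of *nos-3*, which encodes a Nanos protein that binds FBF and acts in the switch between sperm and oocytes, were more abundant in *pup-1(0)*. They stood at 34.1, 46.2 and 46.9 CPM there, against 18.7, 32.0 and 36.8 CPM as lowest, median and highest of wild type, so replicate 1 lay within the wild-type range. The log2 fold change was 0.49 (standard error 0.17, 95% interval 0.14 to 0.84, adjusted p = 0.028 from edgeR's test). This call depended on single libraries: it was lost without wild-type replicate 1, 2 or 4 (0.34, 0.40 and 0.28, adjusted p = 0.129, 0.104 and 0.185) and without *pup-1(0)* replicate 2 or 3 (0.44 and 0.42, adjusted p = 0.124 and 0.137). It held in 6 of 13 other settings.

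No such difference was found for *nos-3* in the other strains. Its means were 29.7 ± 4.14 CPM in the double mutant, 29.1 ± 4.90 CPM in the triple mutant and 31.3 ± 2.17 CPM in the quadruple mutant, against 30.3 ± 6.25 CPM in wild type (SD, n = 3 each and n = 6). The log2 fold changes were -0.04, -0.06 and 0.04, with 95% intervals of -0.40 to 0.32, -0.42 to 0.30 and -0.31 to 0.39. In order of mean level, *pup-1(0)* came first, and its 3 libraries were above all those of the quadruple mutant, the next in line. This pair was found by ordering the means and was not tested. The share of all sRNAs without overlap between these strains was not counted. All later neighbours overlapped, down to 27.02 ± 3.96 CPM in *pup-3(0)* (SD, n = 3). The double mutant had 32.6, 31.5 and 24.95 CPM, all below the *pup-1(0)* libraries, and the log2 fold change between them was -0.53 (95% interval -0.94 to -0.11, adjusted p = 0.105 from edgeR's test). Of all sRNAs tested in that comparison, 22.2% had ranges that did not overlap.

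The siRNAs of *mex-3*, a KH-domain protein that represses *pal-1* mRNA in the early embryo, fell in the double and quadruple mutants. The quadruple mutant had 38.1, 39.7 and 37.0 CPM, against 53.8, 63.1 and 73.5 CPM as lowest, median and highest of wild type. Its libraries were the closest together of any genotype for this gene and were all below wild type. The log2 fold change was -0.73 (standard error 0.17, 95% interval -1.09 to -0.38, adjusted p = 0.00157 from edgeR's test), to 0.603 of the wild-type level. It kept an adjusted p of 0.0139 or less with any 1 library left out. When libraries were scaled by total counts alone the value became -0.47 (adjusted p = 0.179), and this scaling moved the median of all tested sRNAs by 0.30 upward in this comparison.

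In the double mutant the 3 libraries disagreed, with 56.8, 27.5 and 33.4 CPM of *mex-3* siRNAs. Replicate 1 was inside the wild-type range and the other replicates were below it, and these are the replicates with the highest miRNA shares of the series. The log2 fold change was -0.69 (standard error 0.17, 95% interval -1.05 to -0.34, adjusted p = 0.00279 from edgeR's test). Without replicate 1 it was -1.07 (adjusted p = 2.14e-05), past the fold threshold, and without replicate 2 it was -0.50 (adjusted p = 0.0504). The part of library composition in the result was not tested.

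In the other 5 strains *mex-3* siRNAs did not pass the test. The triple mutant stood at 53.0, 59.7 and 58.7 CPM, all but replicate 1 within the wild-type range, with a log2 fold change of -0.15 (95% interval -0.50 to 0.20). For *pup-1(0)*, with 47.1, 61.6 and 45.2 CPM, it was -0.31 (95% interval -0.66 to 0.05, adjusted p = 0.169 from edgeR's test). That comparison lay near the threshold: without wild-type replicate 1 or 4 it was -0.46 or -0.45 (adjusted p = 0.0244 and 0.0473). It also passed with 6 factors of unwanted variation as covariates (-0.32, adjusted p = 0.0388), siRNAs alone (-0.40, adjusted p = 0.0179), a filter at 10 CPM in 3 libraries (-0.41, adjusted p = 0.0233) and one at 50 counts (-0.36, adjusted p = 0.046). The values were -0.23 in *pup-2(0)*, 0.01 in *pup-3(0)* and -0.22 in *pup-4(0)*, with intervals that included 0. Ordered by mean, *mex-3* siRNAs ran from *pup-3(0)* at 64.7 CPM and wild type at 63.5 CPM through the triple mutant, *pup-4(0)*, *pup-2(0)*, *pup-1(0)* and the double mutant at 39.2 CPM to the quadruple mutant at 38.3 CPM, and all neighbours overlapped. Over the 8 genotype means, *mex-3* had a Pearson correlation of -0.66 with *fbf-1* and -0.70 with *fbf-2*, a description without a test.

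The siRNAs of *mex-5*, the most abundant for their length in wild type, did not pass the test in any strain. Their mean ran from 129 ± 28.5 CPM in the double mutant to 170.1 ± 16.2 CPM in the triple mutant (SD, n = 3 each), against 146 ± 36.1 CPM in wild type (SD, n = 6). Wild type alone spanned 95.35 to 194 CPM, and every mutant library lay in that span. The 7 log2 fold changes were between -0.18 and 0.22, and their 95% intervals lay between -0.53 and 0.57, short of a doubling in either direction. The double mutant again had 1 high library, at 161 CPM in replicate 1 against 108 and 118 CPM in replicates 2 and 3.

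The siRNAs of *oma-2* were far apart between the libraries of the double mutant. There they stood at 61.4, 21.8 and 22.6 CPM, so replicate 1 was above all wild-type libraries while replicates 2 and 3 lay near the bottom of the wild-type range of 21.2 to 43.3 CPM. The log2 fold change was -0.01 (95% interval -0.53 to 0.51) with all 3 libraries and -0.69 (adjusted p = 0.0151 from edgeR's test) without replicate 1. With 6 factors of unwanted variation (RUVs, from the spread within groups), the kind of correction the study's methods name, it was 0.42 (adjusted p = 0.0233). The direction of *oma-2* in this strain therefore turned with the library set and the correction.

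Values of *oma-2* were higher than the wild-type median of 36.3 CPM in all triple and quadruple mutant libraries. The triple mutant had 50.3, 53.9 and 40.8 CPM and the quadruple mutant 41.5, 50.75 and 48.4 CPM, each overlapping wild type. Neither passed the test, with log2 fold changes of 0.44 (95% interval -0.07 to 0.96, adjusted p = 0.192) and 0.40 (95% interval -0.10 to 0.91, adjusted p = 0.22, both from edgeR's test). With the 6 factors they were 0.65 and 0.54 (adjusted p = 0.000383 and 0.00133). In *pup-1(0)*, with 43.4, 48.7 and 37.7 CPM, the log2 fold change was 0.28 (95% interval -0.23 to 0.80). Means ran from 48.3 CPM in the triple mutant to 30.7 CPM in *pup-2(0)*, and all neighbours in that order overlapped.

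In the 7 comparisons with wild type, no member siRNA was called differentially abundant (DA), which required a log2 fold change beyond 1 in either direction at an adjusted p below 0.05 in edgeR's test. Of all 9645 sRNAs tested, 21% were DA in *pup-1(0)*, 0.518% in *pup-2(0)*, 0.404% in *pup-3(0)*, 0.0518% in *pup-4(0)*, 21.1% in the double, 17.6% in the triple and 21.2% in the quadruple mutant. DESeq2 also called 0 of the 6 members in each strain. The numbers of members at an unadjusted p under 0.05 were 3, 0, 1, 0, 1, 0 and 3 of 6 in the same order of strains. The share of all sRNAs at that unadjusted threshold was not counted, so these numbers have no background here. At the stricter adjusted p under 0.05, 3476, 59, 43, 7, 3428, 3056 and 3555 of the 9645 sRNAs passed edgeR's test. In 39 of the 42 comparisons the whole 95% interval lay within 1 of 0 on the log2 scale, and the other 3 were *mex-3* in the double and quadruple mutants and *fbf-2* in the quadruple mutant. When libraries were scaled by total counts alone, *fbf-2* was DA in the quadruple mutant, at 1.02, but this scaling moved the median of all sRNAs by 0.30 in the same direction, and relative to that shift *fbf-2* stood where it did before.

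Without the fold threshold, a rule added after the values were seen, 7 of the 42 comparisons had an adjusted p under 0.05, with 5 higher and 2 lower. In *pup-1(0)*, 3 of 6 members were higher and 0 lower, where 17% of all sRNAs were higher and 19% lower. With siRNAs alone, or a filter at 10 CPM or at 50 counts, 4 members passed, the added member being *mex-3*, which was lower. The share of all sRNAs that passed in these settings was not counted. In the double mutant 0 were higher and 1 lower, where 15.9% and 19.7% of all sRNAs were. In the quadruple mutant 2 were higher and 1 lower, where 16.9% and 19.9% of all sRNAs were. The same 3 members had ranges that did not overlap wild type, as 32.4% of all sRNAs did. The median log2 fold change over the 6 members was 0.39 in *pup-1(0)*, -0.02 in the double, 0.18 in the triple and 0.22 in the quadruple mutant, beside -0.26, -0.12, -0.20 and -0.13 over all sRNAs tested. With only 6 members, 2 of which may share reads, these counts and medians describe the members and were not tested.

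**Figure D4:**
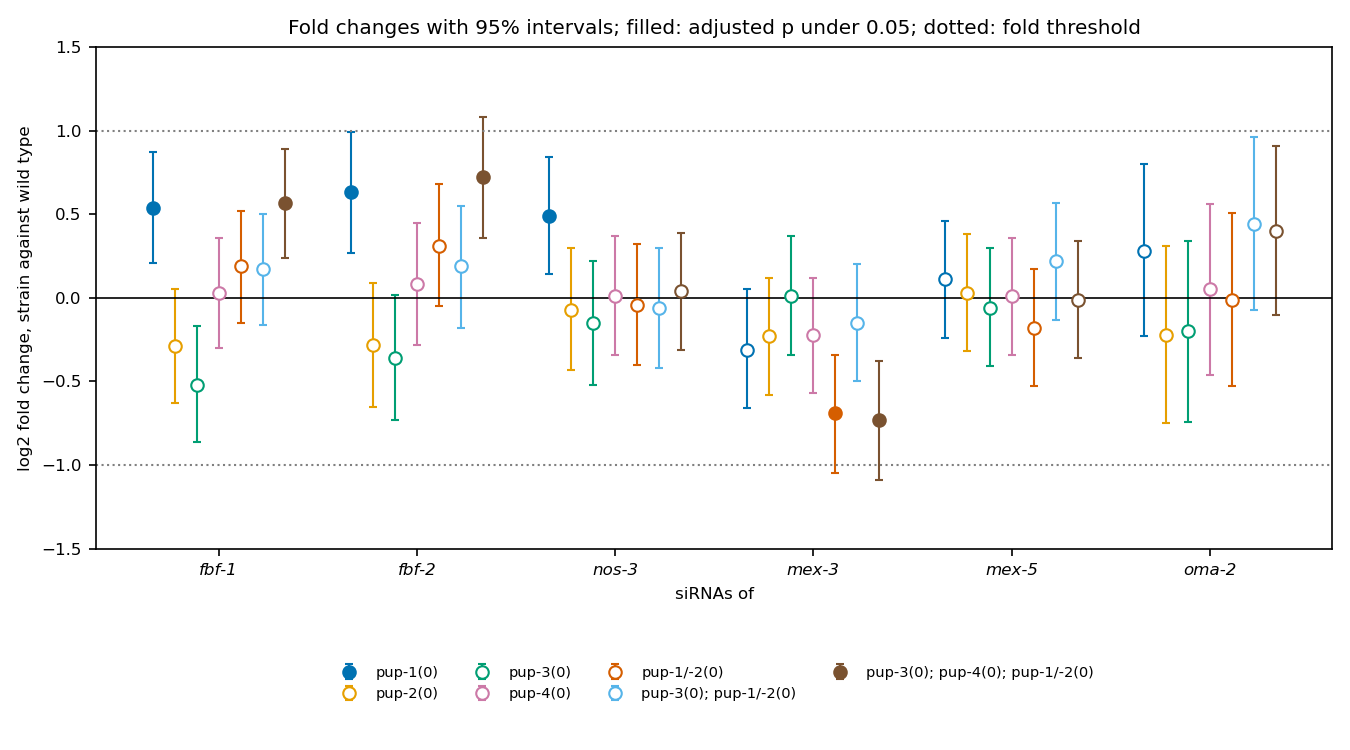
log2 fold change against wild type (y axis) of the siRNAs of 6 regulators in 7 *pup* strains, with 95% intervals. Filled points had an adjusted p under 0.05 and dotted lines mark the fold threshold of 1; the 7 filled points are *fbf-1* and *fbf-2* in *pup-1(0)* and the quadruple mutant, *nos-3* in *pup-1(0)*, and *mex-3* in the double and quadruple mutants, all short of the dotted lines.

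The stepwise comparisons asked what each further *pup* mutation adds. In none of the 3 steps was a member DA by edgeR's test or by DESeq2, while 4.12% of all sRNAs were DA in the double mutant against *pup-1(0)*, 0.487% in the triple against the double mutant and 0.612% in the quadruple against the triple mutant. At an unadjusted p under 0.05 there were 1, 1 and 3 members. The share of all sRNAs at that unadjusted threshold was not counted, and the DA shares are at another threshold. At the stricter adjusted p under 0.05, 647, 51 and 68 of all 9645 sRNAs passed edgeR's test. All 6 members had negative log2 fold changes in the double mutant against *pup-1(0)*, between -0.53 and -0.29, with a median of -0.34 beside -0.13 over all siRNAs and -0.05 over all sRNAs tested, and 42.7% of all siRNAs were above 0. Without replicate 1 of the double mutant, *fbf-2*, *mex-3* and *oma-2* passed the test in that step, at -0.61, -0.77 and -0.98 (adjusted p = 0.0421, 0.00505 and 0.00818 from edgeR's test), and without *pup-1(0)* replicate 1 *fbf-1* did, at -0.59 (adjusted p = 0.0394).

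In the triple mutant against the double mutant the largest value was that of *mex-3*, at 0.54 (95% interval 0.14 to 0.95, adjusted p = 0.245 from edgeR's test). Without replicate 1 of the double mutant it was 0.93 (adjusted p = 0.00317), and *oma-2* was 1.13 (adjusted p = 0.0088). In the quadruple mutant against the triple mutant, *fbf-1* and *fbf-2* had log2 fold changes of 0.40 and 0.54 and *mex-3* of -0.58, with 95% intervals of 0.02 to 0.78, 0.11 to 0.96 and -0.98 to -0.18. The libraries of these 3 genes did not overlap between the strains, as was so for 32.5% of all sRNAs, and their adjusted p values of 0.336, 0.241 and 0.18 from edgeR's test missed the threshold. DESeq2 gave *mex-3* an adjusted p of 0.0328 there.

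Whether loss of *pup-4* had another effect in the triple mutant than alone was tested as an interaction, added after the values were seen. For *fbf-2* it was 0.45 (95% interval -0.11 to 1.01, adjusted p = 0.831) and for *mex-3* -0.36 (95% interval -0.88 to 0.17, adjusted p = 0.858 from edgeR's test). For loss of *pup-3* in the double mutant against loss of *pup-3* alone, the lowest adjusted p was 0.441, for *mex-3* at 0.53 (95% interval -0.01 to 1.07). For loss of *pup-2* it was 0.369, for *nos-3* at -0.46 (95% interval -1.01 to 0.09, from edgeR's test). That interaction also sets *pup-1/-2(om129)* against *pup-1(tm1021)*, so allele and strain cannot be told apart from loss of *pup-2*. None of the 6 members passed any of the 3 interaction tests, and 0 had an unadjusted p under 0.05, where all sRNAs were not counted. Of all sRNAs, 0.176% passed an adjusted p under 0.05 for *pup-4*, 0.664% for *pup-3* and 1.9% for *pup-2*.

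Among 32 other germline RNA regulators that were listed by name (PUF proteins, cytoplasmic poly(A) polymerases, zinc-finger and KH-domain proteins and translation repressors), 23 had an siRNA row and 22 were tested. In *pup-1(0)*, 4 were DA higher and 0 lower, with 0 higher and 1 lower in the double, 2 higher and 0 lower in the triple, and 1 higher and 1 lower in the quadruple mutant. Over all sRNAs the DA shares in these strains were 21%, 21.1%, 17.6% and 21.2%, which the shares of the list did not exceed. None was DA in the 3 strains that keep *pup-1*, where at most 0.518% of all sRNAs were. None was DA in the same direction in all 4 strains that lack *pup-1*, so the following genes were named after their values were seen. The siRNAs of *gld-2*, the poly(A) polymerase that GLD-3 partners, stood at 238 ± 29.2 CPM in *pup-1(0)* and 219 ± 10.1 CPM in the quadruple mutant, against 96.55 ± 17.9 CPM in wild type (SD, n = 3 each and n = 6), with log2 fold changes of 1.30 and 1.18 (adjusted p = 7.87e-07 and 3.23e-06 from edgeR's test).

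The siRNAs of *gls-1*, a GLD-3-binding protein, were at 324 ± 54.4 CPM in *pup-1(0)*, against 148 ± 17.8 CPM in wild type (SD, n = 3 and n = 6), a log2 fold change of 1.13. Those of the PUF gene *puf-3* rose by 1.44 in *pup-1(0)* and 1.01 in the triple mutant on the log2 scale, and those of *pos-1*, a zinc-finger regulator of the early embryo, by 1.14 and 1.30. The Nanos gene *nos-1* went the other way. Its siRNAs stood at 19.3 ± 4.15 CPM in the double and 20.25 ± 2.33 CPM in the quadruple mutant, against 41.9 ± 4.12 CPM in wild type (SD, n = 3 each and n = 6), with log2 fold changes of -1.11 and -1.05. The median over the 22 was 0.52 in *pup-1(0)*, 0.17 in the double, 0.37 in the triple and 0.27 in the quadruple mutant.

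**Figure D5:**
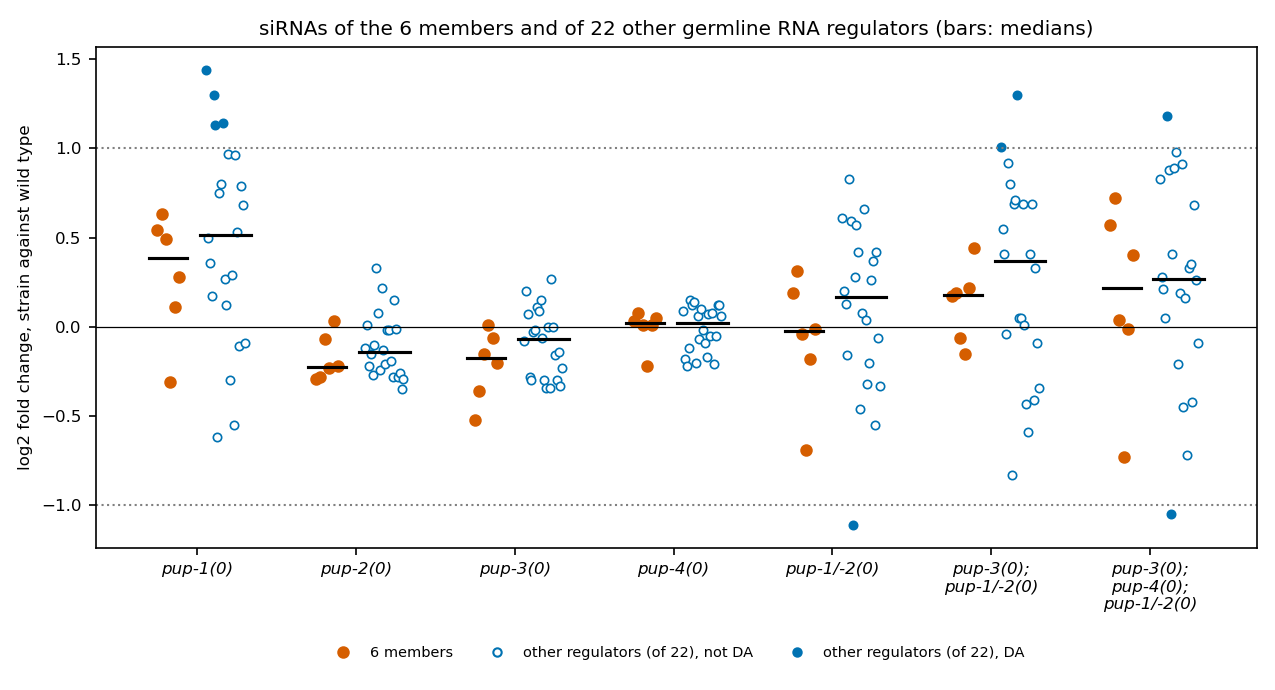
log2 fold change against wild type (y axis) in 7 *pup* strains for the 6 members (orange) and 22 other germline RNA regulators (blue, filled where DA). Black bars are medians and dotted lines the fold threshold of 1; no member passes the threshold in any strain, and 4 other regulators do in *pup-1(0)*, 1 in the double, 2 in the triple and 2 in the quadruple mutant.

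Of 16 mRNAs known to be controlled by the 10 regulators, 10 had a tested siRNA row. The siRNAs of 1 of them, *rme-2*, which encodes the yolk receptor of the oocyte and whose mRNA GLD-1 represses, fell in all 4 strains that lack *pup-1*. They stood at 20.6 ± 1.36 CPM in *pup-1(0)*, 17.1 ± 7.99 CPM in the double, 19.2 ± 3.52 CPM in the triple and 20.6 ± 3.41 CPM in the quadruple mutant, against 47.1 ± 7.32 CPM in wild type (SD, n = 3 each and n = 6). The log2 fold changes were -1.19, -1.46, -1.32 and -1.19 (adjusted p = 0.000718, 0.000101, 0.000363 and 0.000556 from edgeR's test). The other 9, *fem-3*, *lip-1*, *mpk-1*, *tra-2*, *cep-1*, *pal-1*, *glp-1*, *zif-1* and *mei-1*, were not DA in any strain. Over all sRNAs tested, 21%, 21.1%, 17.6% and 21.2% were DA in these 4 strains, in either direction, which the share of this list (1 of 10) did not exceed. The share of all sRNAs that were DA lower in all 4 was not counted. No gene of this list was DA in the 3 strains that keep *pup-1*, where at most 0.518% of all sRNAs were.

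The 5 siRNAs whose genotype means (log2 CPM with 0.5 added) most resembled those of *mex-3*, the member with the largest absolute log2 fold change (0.73, beside 0.72 for *fbf-2*), were *R144.10*, *Y66D12A.6*, *gvd-1*, *C34B4.2* and *clec-87*. Their Pearson correlations with *mex-3* over the 8 genotypes were 0.984, 0.972, 0.969, 0.946 and 0.941. They are the highest of 7183 such values and carry no test.

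Markers of other tissues moved with some of the groups. Of 12 somatic genes (muscle, intestine, cuticle, neurons), 6 had an siRNA row and 4 were tested, and the muscle myosin gene *myo-3* was at 0 in all wild-type libraries. Their summed level was 36.6 to 49.0 CPM in *pup-1(0)*, 91.55 to 100.3 CPM in the double, 86.6 to 136 CPM in the triple and 80.2 to 121 CPM in the quadruple mutant, against 16.2 to 44.4 CPM in wild type. In these 4 mutant strains most of the sum came from the yolk protein genes *vit-2* and *vit-6*. By DA calls, *vit-6* was higher in all 4 and *vit-2* in the double, triple and quadruple mutants. The muscle myosin gene *unc-54* was lower in *pup-1(0)*, the double and the triple mutant, at means of 0.236, 0.686 and 0.777 CPM against 4.09 CPM in wild type, whose libraries ranged from 0.705 to 13.2 CPM. In *pup-2(0)*, where no member passed the test, the summed level of the somatic genes was 86.7 to 186 CPM. Of 10 sperm genes, 5 had a row, and their summed level was 0.109 to 1.31 CPM in *pup-1(0)*, 1.49 to 6.91 CPM in the double, 0.67 to 2.09 CPM in the triple and 2.12 to 5.81 CPM in the quadruple mutant, against 0.293 to 7.05 CPM in wild type. Only *gsp-3* and *gsp-4*, sperm phosphatase genes, were tested: both were DA higher in the double mutant (adjusted p = 0.00803 and 0.0364 from edgeR's test), and *gsp-3* was in the quadruple mutant (log2 fold change 3.42, adjusted p = 0.00286), where *fbf-1*, *fbf-2* and *mex-3* also passed an adjusted p under 0.05. Mean levels in wild type, the double and the quadruple mutant were 0.179, 1.35 and 1.62 CPM for *gsp-3*. For *gsp-4* they were 0.364, 1.93 and 1.40 CPM. Both rows lay near the floor and passed the filter on low counts only through the strains where they are high, so these calls carry no separate weight. Of 11 miRNA markers of stage and tissue, 10 were tested, and 1 was DA lower in *pup-1(0)* (*mir-1*), 1 in the double (*mir-36*) and 3 in the quadruple mutant (*mir-40*, *mir-41* and *mir-42*), names taken after the values were seen. In these 3 strains 21%, 21.1% and 21.2% of all sRNAs tested were DA, in either direction. The part of these markers in the values of *fbf-1*, *fbf-2*, *nos-3* and *mex-3* was not tested.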

How the data were processed

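Small RNA libraries were made from RNA treated with a 5′ polyphosphatase. Per the study's methods, reads of 15 to 26 nt with a quality cutoff of 20 were kept, trimmed with cutadapt, mapped with HISAT2 and assigned with smalldisco, and the authors deposited raw counts per sRNA, with an siRNA being the sum of reads antisense to a gene's coding sequence whatever its 3′ tail. Columns of the double and quadruple mutants carry a leading letter that the sample descriptions lack and were matched on the rest of the name, so all values of these strains rest on that match. Tool versions are not given in the sources used here. Reads shared by similar genes can shift counts between them. Gene positions are from the WBcel235 annotation. Small RNA counts were not used to check the *pup* alleles.

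All 27 libraries were fitted in 1 model with edgeR 4.0.16 in R 4.3.3 (rows filtered at a minimum count of 10, TMM scaling, robust quasi-likelihood test), with Benjamini-Hochberg adjustment over 9645 sRNAs (7184 siRNAs, 2302 piRNAs, 157 miRNAs and the remainder of other classes). DA meant a log2 fold change beyond 1 in either direction at an adjusted p below 0.05. The model was tested on simulated data whose changes lay past the fold threshold. Its power at the smaller changes of the members was not tested. Alternatives were DESeq2 1.42.0, other scalings and filters, 6 factors of unwanted variation (own implementation), a replicate block, fewer libraries and leaving out each library. The 10 members, the lists (other regulators, controlled mRNAs, somatic, sperm and miRNA markers) and the tests were chosen with earlier results of these data known. The rule named, from the other regulators and controlled mRNAs, the genes DA in the same direction in all 4 strains that lack *pup-1*, which *rme-2* alone met; other list genes were named after their values were seen. It also named, for the member with most calls (ties by largest change) the 5 siRNAs most alike.

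Replicates are separate samples of 1 strain, described in the study's methods as independent for wild type and mutants alike, and the labels name no batch. Replicate numbers are shared between strains. Deviations of same-numbered libraries from their group means correlated at -0.23 to 0.40 over 30 pairs. Only for the quadruple mutant against wild type were all 3 pairs over 0.1 (0.40, 0.10 and 0.20). Even there, replicates 2 and 3 correlated best with wild-type replicates 6 and 2, and only replicate 1 with its own number. In the double mutant against *pup-1(0)* and the triple against the double mutant, every library correlated best with its own number. Whether the numbers pair the samples is therefore not settled, and the model of all genotypes did not pair them.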

Additional observations from a re-analysis of the deposited data

How the results depend on the processing

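The absence of DA members held under the alternatives except that 1 was DA in the quadruple mutant with total counts as the only scaling, and that leaving out 1 library gave 0 to 1 in the double mutant against wild type and 0 to 1 in the triple against the double mutant (1 without double mutant replicate 1 in both). The number of members at an adjusted p under 0.05 was less stable. The share of all sRNAs at that threshold was not counted in the alternative settings, so the numbers below have no background beside them. In *pup-1(0)*, 3 in the model of all genotypes, it was 5 with the 6 factors, 4 with siRNAs alone or a filter at 10 CPM or 50 counts, 1 without a filter, 1 with the replicate block, 1 with wild-type replicates 1 to 3 alone and 0 with only the genotypes compared. With wild-type replicates 1 to 3 alone *fbf-2* and *nos-3* were lost there (adjusted p = 0.0511 and 0.113 from edgeR's test). Total counts as the only scaling, wild-type replicates 4 to 6 alone and leaving out the 5 shallowest libraries each lost *nos-3* in *pup-1(0)* (adjusted p = 0.0952, 0.0798 and 0.0882 from edgeR's test). In the double mutant, the number of members was 1 in the model of all genotypes. It was 3 with the 6 factors, 0 with only the genotypes compared and 2 without the 5 shallowest libraries, a setting chosen after seeing the totals. In *pup-3(0)* it was 1 with the 6 factors and 1 with DESeq2 in place of 0, and in the triple mutant 2 with the 6 factors in place of 0. For the quadruple mutant against wild type, *oma-2* was added with the 6 factors (0.54, adjusted p = 0.00133 from edgeR's test). There *mex-3* was lost with total counts as the only scaling (-0.47, adjusted p = 0.179). In the quadruple against the triple mutant, 0 became 2 with the 6 factors, 1 with siRNAs alone, 2 with only the genotypes compared and 1 with DESeq2. With 1 library left out the number ran from 0 to 3 in *pup-1(0)*, 0 to 1 in *pup-3(0)*, 0 to 2 in the double and 2 to 3 in the quadruple mutant against wild type, 0 to 3 in the double mutant against *pup-1(0)* and 0 to 2 in the triple against the double mutant. The direction of *oma-2* in the double mutant turned to 0.42 with the 6 factors. The replicate block gave 0.45 for *fbf-1* and 0.37 for *nos-3* in *pup-1(0)* (adjusted p = 0.0617 and 0.123 from edgeR's test). In the quadruple mutant it gave 0.48, 0.60 and -0.82 for *fbf-1*, *fbf-2* and *mex-3*, and it changed no call there. Whether the replicate numbers pair the samples is not known in either comparison. Over all comparisons, 14 of 30 libraries correlated best with the library of their own number. The cause of these shifts was not tested. Total counts moved the median of all sRNAs by -0.20 to 0.32 between comparisons. With 3 libraries a strain, differences smaller than the widths of the intervals given may go undetected.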
